A study of Mus musculus with 24 samples.

Results

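Macrophages grown from the bone marrow of mice without either liver X receptor (LXR) were compared with macrophages of receptor-positive mice after vehicle alone, with no agonist, lipid load or inflammatory stimulus added. The comparison takes all 6 vehicle libraries of the 24 in the series and every gene in the deposited values: 47372 genes, of which 17090 had no read in any of the 6 and 14949 had a value of at least 10 in at least 3 and were tested. Of these, 3 libraries came from mice labelled LXR positive and 3 from mice labelled DKO (LXR negative), the double knockout of LXRα and LXRβ. Both groups carry the strain label C57BL/6J and an age of 8 to 12 weeks, and each library came from 1 mouse, per the labels. The sources used here give neither how the receptor genes were disrupted nor whether the groups were littermates. Marrow cells grew in DMEM with 20% serum and 30% medium conditioned by L929 cells, a source of the macrophage growth factor CSF1. Fresh medium followed on day 4 and vehicle on day 5, for 17 hours. By its title the series is about expression that depends on LXR, and the vehicle libraries show the genotypes with no ligand added. The labels count 6 mice by 4 treatments and number the libraries 1 to 3 in each group. Libraries of one genotype and number are read here as one mouse, which the labels do not state outright. The other 18 libraries were given KLA (Kdo2-lipid A, the TLR4-activating part of lipopolysaccharide), AcLDL (low-density lipoprotein that was acetylated so that scavenger receptors take it up) or the LXR agonist GW3965.

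LXRα and LXRβ are nuclear receptors that pair with RXR and sit on DNA with or without ligand. Bound to oxidized cholesterol derivatives they switch on genes of cholesterol export, fatty acid synthesis and desaturation. Without ligand they hold corepressors such as NCoR at some of the same genes, so that loss of the receptors can lift basal expression of one target and lower that of another. Macrophages use the pathway to shed cholesterol taken up with lipoproteins and dead cells.

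Values are the authors' normalized counts per gene. DKO libraries held 20659071 to 27189081 reads and LXR-positive libraries 10540385 to 17348717, so the groups did not overlap in depth (exact two-sided permutation test, p = 0.1, the smallest that 3 against 3 allows). Mitochondrial transcripts took 15.7 ± 1.49% of reads in DKO and 16.7 ± 2.51% in LXR-positive libraries (SD, n = 3 mice a group; exact permutation p = 0.6). Macrophage markers were read in all 6 libraries, Lyz2 at 137866 to 198745 and 107166 to 125824, Csf1r at 25334 to 37600.0 and 20155 to 30261 and Adgre1 (F4/80) at 24979 to 29205 and 16786 to 19919.8 in LXR-positive and DKO libraries. The Y-linked gene Ddx3y was read in all 6 (1105 to 1507 and 1013 to 1296). LXR-positive library 2 stood apart from its group: across the genes tested its log2 values correlated at 0.9725 with DKO library 1 and at 0.9575 and 0.9581 with LXR-positive libraries 1 and 3, a description across genes, which are not independent replicates. Called genes, several lipid genes and some list medians are given without it as well.

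Neither targeted gene lost its reads. Nr1h2, which encodes LXRβ (GRCm38 chromosome 7, 44549616 to 44553951), had 523, 569.7 and 654 normalized counts in LXR-positive libraries 1, 2 and 3 and 312, 275 and 399 in DKO libraries 1, 2 and 3. The groups did not overlap, and the log2 difference, DKO minus LXR-positive, was -0.83 ± 0.16 (SE), which did not pass limma over all genes (adjusted p = 0.21). Nr1h3, which encodes LXRα (chromosome 2, 91184061 to 91202834), had 114, 176 and 114 in LXR-positive and 187, 176 and 179 in DKO libraries. Its lowest DKO library lay just above its highest LXR-positive library, and the difference of 0.45 ± 0.19 did not pass either (adjusted p = 0.42). Each value sums reads over the whole gene and the sources used here do not name the deleted exons, so neither value checks the DKO label.

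In the main test few genes separated the genotypes. Of 14949 genes tested with limma on log2(value + 1), 10 (0.0669%) had an adjusted p under 0.05 (Benjamini-Hochberg over all genes tested) and are called here, 8 higher (0.0535%) and 2 lower (0.0134%) in DKO macrophages. At an unadjusted p under 0.05 there were 1759 genes (11.8%), and the 3 libraries of one genotype lay apart from the 3 of the other for 2671 genes (17.9%), of which 1076 (7.2%) were higher and 1595 (10.7%) lower in DKO. Simulated differences of 1 on the log2 scale were called for 62 of 100 genes at this size and differences of 2 for 99 of 100, with 9 unchanged genes among the 170 calls. DESeq2 called 85 and 99 of 100 in the same simulation, with 51 unchanged genes among 235 calls. A further limma fit took in all 24 libraries with the mouse, read from genotype and number, as a random block and is called the 24-library fit below. Its spread comes from the libraries of all treatments, with the same correlation between libraries of a mouse assumed for every gene. If equal numbers mark the same mouse, its smaller p-values rest on more libraries and on no more mice than the main test. For the same vehicle contrast the 24-library fit called 84 entries (0.562%), 49 higher (0.328%) and 35 lower (0.234%), with 1 gene, Ide, under 2 entries. DESeq2 on the recovered reads called 189 (1.26%), 110 higher (0.736%) and 79 lower (0.529%), edgeR called 8 (0.0535%), and limma without LXR-positive library 2 called 34 (0.227%). With every library thinned to 10540385 reads, the smallest vehicle depth, limma called 14 (0.0937%), with 9 of the 10 calls among them and Ighv11-2 below the filter. All 10 calls were also among those of the 24-library fit, of DESeq2 and of the fit without that library.

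**Figure D1:**
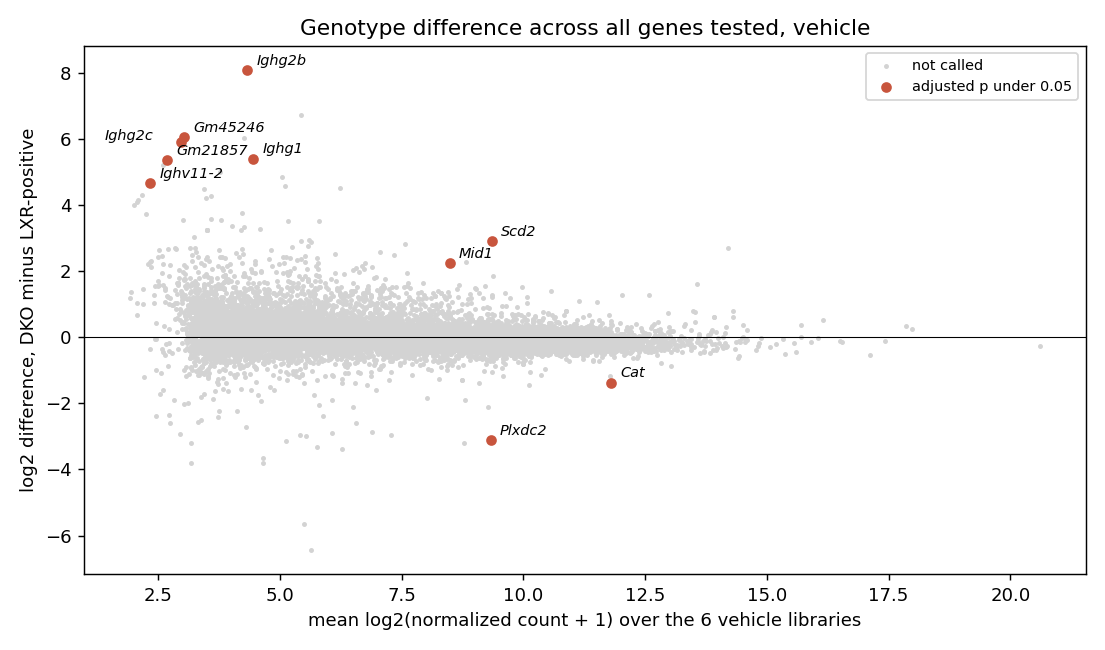
Log2 difference, DKO minus LXR-positive (y axis), against the mean log2(value + 1) of the 6 vehicle libraries (x axis) for each of the 14949 genes tested. Marked points are the 10 genes that passed limma: Plxdc2 and Cat below 0, and Scd2, Mid1, immunoglobulin genes and 2 pseudogenes above it.

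Scd2, a stearoyl-CoA desaturase that makes monounsaturated fatty acids, was the lipid gene that passed. The LXR-positive libraries held 238, 245 and 232 normalized counts and the DKO libraries 1618, 2646 and 1344. The lowest DKO library was well above the highest LXR-positive library, with a mean of 238 ± 6.51 against 1869 ± 687 (SD, n = 3). The log2 difference was 2.91 ± 0.23 (GRCm38 chromosome 19, 44293676 to 44306864; limma adjusted p = 0.0068, 0.020 without LXR-positive library 2). The call ended without LXR-positive library 1 or 3. Its close copy Scd1, the main desaturase of liver, had 25.0, 10.9 and 12.2 against 111, 164 and 32.5, groups apart, with a difference of 2.41 ± 0.60 that did not pass (adjusted p = 0.30; DESeq2 0.0012). How reads were divided between these copies is uncertain. Fads2, the desaturase of polyunsaturated fatty acids, had 14.3, 14.0 and 14.7 against 64.3, 105 and 30.2 (1.97 ± 0.43, limma adjusted p = 0.24, 0.15 without LXR-positive library 2; DESeq2 0.0040).

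The cholesterol exporters stood on the same side. Abca1, which hands cholesterol to apolipoprotein A-I (chromosome 4, 53030787 to 53159895), had 9154, 8698 and 8200.1 in LXR-positive and 14347, 16732 and 14223 in DKO libraries. All DKO libraries were higher, by 0.80 ± 0.11 on the log2 scale, which missed the threshold in limma (adjusted p = 0.066, 0.073 without LXR-positive library 2) and passed in the 24-library fit (6.4e-04) and in DESeq2 (1.3e-08). Abcg1, whose product loads cholesterol onto high-density lipoprotein, had 1959, 2005 and 1823 against 3007, 3341 and 2489, again with no overlap (0.60 ± 0.13, limma adjusted p = 0.23, 0.13 without LXR-positive library 2, 24-library fit 0.067, DESeq2 0.0034). Srebf1, whose product switches on fatty acid synthesis genes, had 293, 252 and 228 against 386, 591 and 491 (0.91 ± 0.18, limma adjusted p = 0.21, 0.13 without LXR-positive library 2, 24-library fit 0.0038, DESeq2 0.0016).

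Mylip, a ubiquitin ligase that limits lipoprotein uptake (also called Idol), lay on the other side. Its values were 1357, 1053 and 1295 in LXR-positive and 758, 716 and 717 in DKO libraries, and the DKO libraries were close to each other and all lower. The difference was -0.75 ± 0.12 (limma adjusted p = 0.11, 24-library fit 0.014, 0.039 without LXR-positive library 2). The lipid genes named beside Scd2 were chosen after their values were seen, except those with the highest levels of each list.

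**Figure D2:**
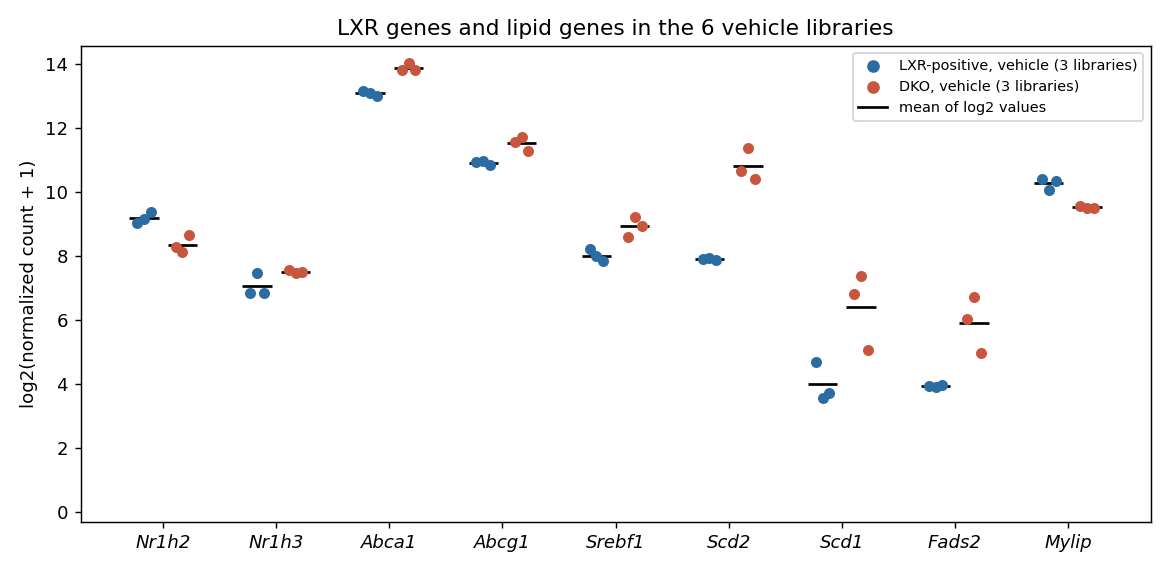
Log2(normalized count + 1) of the receptor genes and 7 lipid genes in the 6 vehicle libraries, LXR-positive in blue and DKO in red, 1 point a library, with black lines for the mean of the log2 values. Scd2 shows the widest gap of the 9 genes, with LXR-positive libraries at 232 to 245 and DKO libraries at 1344 to 2646 normalized counts, and Nr1h2 and Mylip lie lower in all 3 DKO libraries.

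Promoter sequence is shown for Abca1 and Srebf1, targets that stood higher, and for Mylip, which stood lower. No window was found for Scd2, Scd1 or Abcg1. RefSeq windows on GRCm38.p6 were found for 6 of 13 lipid genes sought, and 250 bases before the start are printed 5′ to 3′ on the gene's strand. Capitals mark the best match to a direct repeat of AGGTCA with 4 bases between (DR4), the kind of element that LXR and RXR bind, searched on both strands with at most 3 mismatches to its 12 specified bases. Such a match occurs in 21.9% of 32851 promoter windows of 300 bases, so it is common, and overlap with other motifs was not counted.
Abca1 promoter, chr4:53159896-53160145, minus strand: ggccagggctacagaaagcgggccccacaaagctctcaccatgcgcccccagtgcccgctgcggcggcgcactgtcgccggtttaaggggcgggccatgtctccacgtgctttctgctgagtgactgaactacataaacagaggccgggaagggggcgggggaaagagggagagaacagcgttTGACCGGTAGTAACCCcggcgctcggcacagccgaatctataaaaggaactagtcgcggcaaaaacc
Srebf1 promoter, chr11:60210472-60210721, minus strand: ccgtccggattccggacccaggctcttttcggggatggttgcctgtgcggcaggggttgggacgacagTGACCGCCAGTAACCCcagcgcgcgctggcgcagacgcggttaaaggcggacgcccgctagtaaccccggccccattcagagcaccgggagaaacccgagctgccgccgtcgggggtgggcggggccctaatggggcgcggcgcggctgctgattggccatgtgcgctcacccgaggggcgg
Mylip promoter, chr13:45389492-45389741, plus strand: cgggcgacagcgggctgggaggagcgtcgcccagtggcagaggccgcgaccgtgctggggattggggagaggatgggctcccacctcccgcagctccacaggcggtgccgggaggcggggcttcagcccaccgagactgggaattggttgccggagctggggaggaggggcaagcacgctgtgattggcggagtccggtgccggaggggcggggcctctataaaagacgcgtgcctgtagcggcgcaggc
The Abca1 match lies 67 to 52 bases before the start and the Srebf1 match 182 to 167 bases before the most downstream of 3 starts, both on the opposite strand with 3 mismatches. The windows of the other 2 Srebf1 starts hold no match at this limit. The 16 bases of the Abca1 and Srebf1 matches are identical at 14 positions. Hmgcs1, HMG-CoA synthase, holds a match 158 to 143 bases and Insig1 one 115 to 100 bases before the start. The Mylip window holds none at this limit, nor does that of Fads2, which stood higher and is not printed. In the printed windows the higher genes Abca1 and Srebf1 thus hold a match and the lower gene Mylip none. With no match in Fads2 and matches in 21.9% of all windows, this draws no contrast between higher and lower genes. A match here describes letters and no binding was measured.

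Across the list of 28 LXR target genes, 24 were tested, 16 with a difference above 0 and 8 below it (49.8% of all genes tested were above 0). In limma 1 passed, Scd2, higher. The 24-library fit called 4 higher (Abca1, Scd2 and Srebf1 among them) and 1 lower (Mylip), against 0.562% of all genes, and DESeq2 called 8 higher and 1 lower, against 1.26%. The groups lay apart with DKO higher in 9 and lower in 2, against 7.2% and 10.7% of all genes. The list's median difference was 0.29, against -0.0016 over all genes tested, and 0.47 without LXR-positive library 2. Of the 4 targets with the highest counts, Abca1 was apart and the other 3 overlapped between genotypes. Apoe, which carries cholesterol out of macrophages, had 43371 to 53772 in LXR-positive and 49801 to 73981 in DKO libraries. Lpl, lipoprotein lipase, had 10970.1 to 27792 and 16771 to 34390.2, with DKO library 3 inside the LXR-positive range. Pltp, phospholipid transfer protein, had 6538 to 7858 and 4409 to 7199. Lpcat3, which builds polyunsaturated phospholipids, differed by -0.01 ± 0.19 (limma adjusted p = 0.99), and Fasn, fatty acid synthase, by 0.76 ± 0.28 with overlapping groups (0.39). Targets thus lay above, below and within the LXR-positive range.

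Genes of cholesterol synthesis and uptake lay mostly on the higher side in DKO macrophages, though none passed limma over all genes. Of 24 genes 23 were tested, 21 above 0 and 2 below, Ebp and Dhcr7 (median 0.67). In 13 of them every DKO library exceeded every LXR-positive library, where 7.2% of all genes did so, and in 0 the reverse held. The 24-library fit called 2, Fdft1 among them, against 0.562% of all genes, and DESeq2 11, all higher, against 1.26%. The summed level of the list was 7011 to 8714 in LXR-positive and 12153 to 15329 in DKO libraries. Cyp51, lanosterol demethylase, had 525, 587 and 567 in LXR-positive and 1529, 1401 and 986 in DKO libraries, 1.20 ± 0.17 on the log2 scale (limma adjusted p = 0.080, 0.075 without LXR-positive library 2, DESeq2 6.3e-08). The DKO libraries were all above the LXR-positive ones.

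Earlier steps of the pathway showed the same order. Hmgcs1 had 757, 699.6 and 837 against 1019.7, 1271 and 1059 (0.54 ± 0.12, limma adjusted p = 0.28). Fdps, farnesyl diphosphate synthase, had 208, 185 and 197 against 309, 319.9 and 311 (0.67 ± 0.11, limma adjusted p = 0.14), with the DKO libraries within a narrow range. Fdft1, squalene synthase, had 225 to 264 against 386 to 472 (0.80 ± 0.13, limma adjusted p = 0.11, 24-library fit 0.0488); it shares 774 exon bases with Ctsb on the opposite strand, and its value is uncertain, since the sources used here do not say whether strand entered the counting. Insig1, a sterol-sensing anchor that keeps SREBP proteins from being processed, had 619 to 934 against 1147 to 1455 and Msmo1, a sterol demethylating enzyme, 878 to 1066 against 1137 to 1948. Without LXR-positive library 2 the list's median was 0.61.

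Of the 7 genes that make and process SREBP proteins, 5 lay above 0 and 0 passed limma, with 1, Srebf1, called in the 24-library fit. Srebf2, the factor that drives cholesterol synthesis genes, had 1094, 812 and 1010.5 against 1215, 1668 and 1384 (0.55 ± 0.16, limma adjusted p = 0.33). Scap, which escorts SREBP proteins, had 545, 267 and 414 against 206, 299 and 209, overlapping and lower on average (-0.74 ± 0.27, 0.39). Among 19 tested genes of fatty acid synthesis, 14 lay above 0 and 1 passed limma, Scd2 (median 0.13). DESeq2 called 5 of these, all higher, where it called 0.736% of all genes higher, Acaca (acetyl-CoA carboxylase) and Mid1ip1 (an activator of that enzyme) among them. Acaca had 537, 542 and 444 against 763, 793 and 697 (0.57 ± 0.12, limma adjusted p = 0.23). Acly, ATP citrate lyase, and Fads1 differed by -0.02 ± 0.11 and 0.02 ± 0.12, with overlapping groups.

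Genes of sterol storage and lipid uptake showed no shift of that kind. Of 14 tested genes of sterol handling, 4 lay above 0 and 10 below, with 0 calls in limma, in the 24-library fit and in DESeq2 (median -0.10). Soat1, which esterifies cholesterol, had 10054 to 11870.3 in LXR-positive and 9215 to 11383 in DKO libraries, and Npc2, which carries cholesterol out of lysosomes, 4663 to 5524 and 4497 to 5211. Of 20 tested genes of lipid uptake and PPAR targets, 12 lay above 0, with 0 calls in limma. Marco, a scavenger receptor, had 65.4, 84.0 and 194 in LXR-positive and 4.84, 7.72 and 31.6 in DKO libraries. All DKO libraries were lower (-3.13 ± 0.68, limma adjusted p = 0.23, 24-library fit 0.027, DESeq2 0.0015), at few reads. Fabp4, a fatty acid carrier, had 120.2, 197 and 188 against 351, 377 and 279 (1.01 ± 0.22, limma adjusted p = 0.23, DESeq2 0.0043). Cd36, a receptor for oxidized lipoprotein, overlapped (4429 to 11778 and 6302 to 15107).

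Partners of the receptors differed less. Of 18 tested genes for RXR, corepressors and coactivators, Nr1h2 and Nr1h3 among them, 7 lay above 0 and 11 below, and 0 passed limma. The 24-library fit called 1, Nr1h2, lower (adjusted p = 0.0488). Ncor1, the corepressor NCoR, had 3826 to 4713 in LXR-positive and 4244 to 5897 in DKO libraries (0.26 ± 0.14), and the coactivator Ncoa3 4924 to 5375 and 4531 to 4800.2 (-0.12 ± 0.09).

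Plxdc2 was, with Ighg2b, the gene of lowest adjusted p. It encodes a transmembrane protein with a plexin-like domain (GRCm38 chromosome 2, 16356304 to 16755839). The LXR-positive libraries held 1968, 1705 and 2047 normalized counts and the DKO libraries 188, 264 and 208, a mean of 1906 ± 179 against 220.2 ± 39.3 (SD, n = 3). The gap between groups was far wider than the spread within either, and Plxdc2 fell by 3.12 on the log2 scale (SE 0.15, limma adjusted p = 5.6e-04, 0.0029 without LXR-positive library 2). It was called in all 17 alternatives. LXR-positive library 2, which otherwise resembled DKO libraries, had 1705 and sat with its own group.

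Cat, which encodes catalase, the enzyme that breaks down hydrogen peroxide (chromosome 2, 103453849 to 103485160), was the other gene called lower. It had 5813, 5245 and 6139 in LXR-positive and 2041, 2033 and 2610.4 in DKO libraries, 5732 ± 452 against 2228 ± 331, and fell by 1.37 on the log2 scale (SE 0.13, limma adjusted p = 0.015, 0.020 without LXR-positive library 2). It was called in the 24-library fit (4.9e-06), DESeq2 (5.1e-16) and edgeR (0.031), while its limma call ended without DKO library 1 or 2 or LXR-positive library 1 or 3. Other genes against oxidants differed less. Of 17 NRF2 target genes, 3 lay above 0 and 14 below (median -0.29), 0 passed limma and DESeq2 called 1, Gclm. Gclm, a subunit of the first enzyme of glutathione synthesis, had 847, 692 and 866 against 509, 608 and 453 (-0.62 ± 0.15, limma adjusted p = 0.29). Prdx1, a peroxidase, had 7098 to 8354 and 5194 to 6618, and Hmox1, which degrades heme, 3089.5 to 3464 and 2453 to 3004.

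Genes of the sex chromosomes included 2 of the calls. On the X chromosome limma called 1 of 469 genes tested (0.213%, against 0.0669% of all genes). The share for the Y chromosome was not counted. Mid1, an X-linked ubiquitin ligase that binds microtubules (chromosome X, 169685199 to 170005736), had 186, 150.2 and 159 in LXR-positive and 726, 1014 and 653 in DKO libraries. The difference was 2.25 ± 0.18 (limma adjusted p = 0.0068, 0.020 without LXR-positive library 2), with 1205 of its exon bases shared with genes on the opposite strand, and the call ended without LXR-positive library 3. Gm21857, a Y-chromosome pseudogene named outside the rule as 1 of the 10 calls, had 0 reads in the LXR-positive libraries and 38.2, 46.9 and 36.5 normalized counts in the DKO libraries, at least 39.3-fold higher against a floor of 3 reads over the group (limma adjusted p = 0.0059), a call that ended without DKO library 1 (0.0576) or 2 (0.111). Erdr1, placed on the Y chromosome in the tables, had 225, 195 and 192 against 874, 1655 and 689 and just missed the threshold (2.29 ± 0.30, limma adjusted p = 0.0544, 24-library fit 0.0016). Ddx3y differed by -0.15 ± 0.15 with overlapping groups, and Xist, the RNA of the inactive X chromosome, was at 4.76 to 34.2 and 8.57 to 11.3 normalized counts. Reads from near-identical copies cannot be assigned with certainty for Gm21857 and Erdr1.

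No gene within 10 Mb of the targeted loci was called in the main test, though both genes called lower, Plxdc2 and Cat, lie on the chromosome of Nr1h3. Cat lies a short way outside that window and Plxdc2 much farther off. Of 1212 genes tested on chromosome 2, limma called 2 (0.165%, against 0.0669% of all genes). The 24-library fit called 11 of them (0.908%, against 0.562%). Within 10 Mb of Nr1h3, 115 genes were tested and 0 passed limma, and within 10 Mb of Nr1h2 it was 0 of 154. The 24-library fit called 3 of the 115 (2.61%, against 0.562% of all genes) and 2 of the 154 (1.30%), of which Nr1h2 was 1. Near Nr1h3 these were Acp2, a lysosomal acid phosphatase, Api5, an inhibitor of apoptosis, and the tetraspanin Tspan18. Acp2, which shares 652 exon bases with genes on the opposite strand, had 3618, 3060.1 and 3733 in LXR-positive and 2168, 2407 and 2685 in DKO libraries, and Api5 1683, 1413 and 1766 and 1111, 1104 and 1078, both with all DKO libraries lower. Tspan18 had 58.3, 73.2 and 66.0 and 141, 145 and 211, all higher. Madd, a neighbour of Nr1h3 chosen after its value was seen, had 2335, 1830.5 and 2047 against 1277, 1344 and 1636 (-0.55 ± 0.14, limma adjusted p = 0.30). Near Nr1h2 the other call was Rpl13a, a ribosomal protein gene (8881, 14355 and 11294 against 8157, 5693 and 5186), which shares 705 exon bases with other genes on its strand.

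Immunoglobulin genes, products of B cells and plasma cells, made up 4 of the 8 genes called higher. All 4 had values of 10 or more in the DKO libraries alone, so they passed the filter through those libraries and could be called in that direction only, and their share of the calls supports nothing. The same holds for the called pseudogenes Gm21857 and Gm45246. Ighg2b, an IgG heavy chain constant region (chromosome 12, 113302965 to 113307933), had 0, 0.780 and 0 normalized counts in LXR-positive and 274, 499.7 and 262 in DKO libraries. That is 1 read in the 3 LXR-positive libraries against 1990 in DKO, a ratio of 981 after scaling (95% exact binomial interval 176 to 38777, counting error only), with limma adjusted p = 5.6e-04 and a call in all 17 alternatives. Ighg1 had 3.57, 0.780 and 3.67 and 109, 169.7 and 154 (5.41 ± 0.43, adjusted p = 0.0068), a call that ended without DKO library 2. Ighg2c had 0 reads in LXR-positive libraries and 64.8, 99.7 and 32.9 in DKO libraries, at least 61.6-fold higher (adjusted p = 0.0068), a call that ended in edgeR and without DKO library 1 or 2. The variable segment Ighv11-2, named outside the rule, had 0 reads and 27.1, 35.6 and 14.9 (at least 24.5-fold, adjusted p = 0.035) and lost its call in 9 of the 15 alternatives that tested it; it was too low to be tested with thinned reads or a mean of 50 or more.

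Without LXR-positive library 2 the limma adjusted p was 0.0015 for Ighg2b, 0.0036 for Ighg1, 0.017 for Ighg2c, 0.037 for Ighv11-2, 0.0091 for Gm21857 and 0.0079 for Gm45246, and all stayed called. These genes had few or no reads in that library and could be called in that direction only, so this supports nothing.

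Light chain, IgA and joining chain transcripts were also read mainly in the DKO libraries. Igkc, the kappa light chain, had 0, 9.34 and 6.11 against 533, 716 and 233 (limma adjusted p = 0.0534, 0.036 without LXR-positive library 2, 24-library fit 4.5e-05). Jchain, which links IgA and IgM units, had 0, 3.11 and 2.44 against 92.9, 125 and 38.3 (limma adjusted p = 0.060) and Igha 0, 0 and 0 against 53.7, 62.3 and 13.5 (0.0504). Igkc, Jchain and Igha passed the filter through the DKO libraries alone and could be called in that direction only. Their p-values thus support nothing. DKO library 2 was highest and DKO library 3 lowest for Igkc, Jchain and Igha. Ighm, the IgM heavy chain, differed little (1059, 1055 and 1205 against 1499, 1319.9 and 1139.7, 0.25 ± 0.13, limma adjusted p = 0.47). Of 268 immunoglobulin segments in the tables, a set chosen after its values were seen, 240 had 0 reads in the LXR-positive and 82 in the DKO libraries. These counts are not matched for depth. The deeper DKO libraries detected more genes of any kind, 25176 to 25480 a library against 22150 to 23400 in LXR-positive libraries. The 11 segments that were tested all lay above 0, but they passed the filter mostly through the DKO libraries, so this count supports nothing.

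Apart from Cd38, given below with its groups apart, other markers of B and plasma cells named here overlapped between genotypes or were at few reads. The B cell receptor gene Cd79a was at 2.33 to 4.89 normalized counts in LXR-positive and 2.90 to 7.72 in DKO libraries and Ms4a1 (CD20) at 12.2 to 14.0 and 6.31 to 19.6. Of 11 plasma cell markers, chosen after values were seen, 7 were tested, 3 above 0 and 4 below. Mzb1, a plasma cell chaperone, was at 0 reads in LXR-positive and at 0.480, 2.37 and 0.900 in DKO libraries, and Derl3 was at 0 in all but DKO library 2, so that both had reads in DKO libraries alone. The DKO libraries were also the deeper ones. Xbp1, the plasma cell transcription factor that macrophages also express, overlapped (960.4 to 1224 and 772 to 1265). In the bulk libraries, fewer cells of a type and less RNA per cell cannot be told apart. Whether lymphoid cells in the cultures had a part in the immunoglobulin reads was not tested. Gm45246, a pseudogene on chromosome 8 named outside the rule, completed the 10 calls, with 0 reads against 94.8, 67.7 and 44.6 (at least 67.2-fold, limma adjusted p = 0.0049). Its call ended in edgeR (adjusted p = 0.0621) and without DKO library 2 (limma 0.0897).

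**Figure D3:**
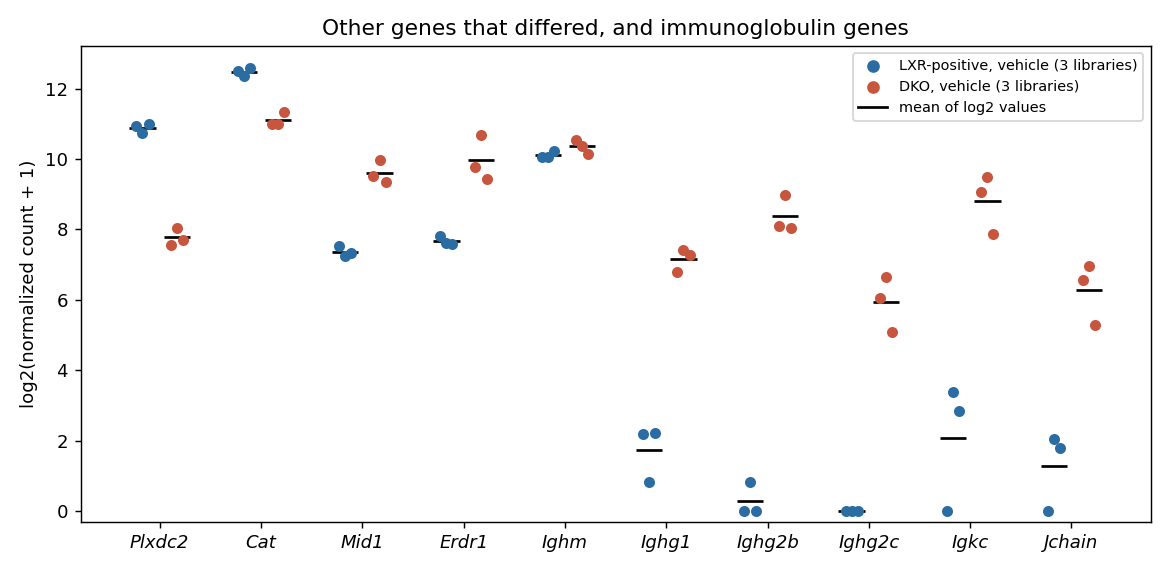
Log2(normalized count + 1) of 10 called and related genes outside lipid metabolism in the 6 vehicle libraries, LXR-positive in blue and DKO in red, 1 point a library, with black lines for the mean of the log2 values. Plxdc2 and Cat lie lower in every DKO library. The immunoglobulin genes lie far lower in the LXR-positive than in the DKO libraries, except Ighm, whose groups overlap.

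Markers of neutrophils and their precursors leaned to the higher side. Of 15 tested neutrophil and precursor markers, 14 lay above 0 and 1, Csf3r, below (median 0.78). In limma 0 passed, the 24-library fit called 2 (Mpo and Ngp, against 0.562% of all genes) and DESeq2 5 (against 1.26%). Mpo, myeloperoxidase of the precursors' granules, had 151, 218 and 167 in LXR-positive and 386, 598 and 386 in DKO libraries (1.33 ± 0.22, limma adjusted p = 0.12, 24-library fit 0.027). Ngp, a secondary granule protein, had 751, 643 and 721 against 1232, 1891 and 1871 (1.21 ± 0.18, limma adjusted p = 0.092). Ltf, lactoferrin, had 332 to 506 and 693 to 887, and Elane, neutrophil elastase, 37.9 to 52.1 and 88.8 to 116. S100a9, an alarmin, had 2266 to 2741 and 3207 to 4244. For these 5 genes the groups did not overlap, DKO being higher. They are a named part of the 15 tested, so their count cannot be weighed against the 7.2% of all genes that lay apart in that direction. The summed level of the markers was 5859.5 to 6488 in LXR-positive and 7649 to 11074 in DKO libraries.

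Cell cycle and stromal genes differed widely between mice of the same genotype. All 26 cell cycle genes lay above 0 (median 0.93, 1.47 without LXR-positive library 2), and 0 passed limma or the 24-library fit. The groups overlapped for 25 of 26. Mki67 had 2072, 7774 and 1184 in LXR-positive and 8393, 9126 and 3535 in DKO libraries, so that LXR-positive library 2 came near DKO libraries 1 and 2 while DKO library 3 was low. Top2a, a DNA topoisomerase of dividing cells, had 672, 2826 and 424 and 3549, 3639 and 1161. The exception was Mcm2, a subunit of the replication helicase, with 85.7, 197 and 153 against 549, 431 and 334 (1.64 ± 0.32, limma adjusted p = 0.21, DESeq2 8.4e-05). The 17 tested stromal markers also lay above 0 (median 1.77, 1.52 without LXR-positive library 2), with 0 calls in limma, in the 24-library fit and in DESeq2. Col1a1, a collagen of fibroblasts, had 327, 42.8 and 24.4 and 773, 1672 and 101, high in DKO libraries 1 and 2 and low in DKO library 3. The summed level was 474 to 1955 in LXR-positive and 758 to 7428 in DKO libraries for stromal markers and 5814 to 19751 in LXR-positive and 10006 to 24728 in DKO libraries for cell cycle genes. Their part in the lipid and immunoglobulin differences was not tested. The lipid gene Scd2 was highest in DKO library 2 and lowest in DKO library 3 as well, although DKO library 3 stayed above all LXR-positive libraries.

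Macrophage markers leaned to the lower side. Of 14 markers, 4 lay above 0 and 10 below, 0 passed limma and DESeq2 called 1, Adgre1 (median -0.16), and their summed level was 249812 to 320914 in LXR-positive and 196584 to 231481 in DKO libraries. Adgre1 differed by -0.58 ± 0.12 with the groups apart (limma adjusted p = 0.21, DESeq2 0.0016) and Lyz2, lysozyme, by -0.54 ± 0.18 (limma adjusted p = 0.35). Csf1r, Itgam, Cd14, Fcgr1, Spi1, Trem2, Tyrobp and Cebpa overlapped between groups. Osteoclast markers (9 tested, 6 above 0), dendritic cell markers (9, 5 above), lymphocyte markers (6, 3 above), erythroid and megakaryocyte markers (4, 3 above) and markers of mast cells, basophils and eosinophils (5, 4 above) had 0 calls in limma. Cma1, Mcpt4, Tpsab1 and Tpsb2 of mast cells were at 0 in all 6 libraries.

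**Figure D4:**
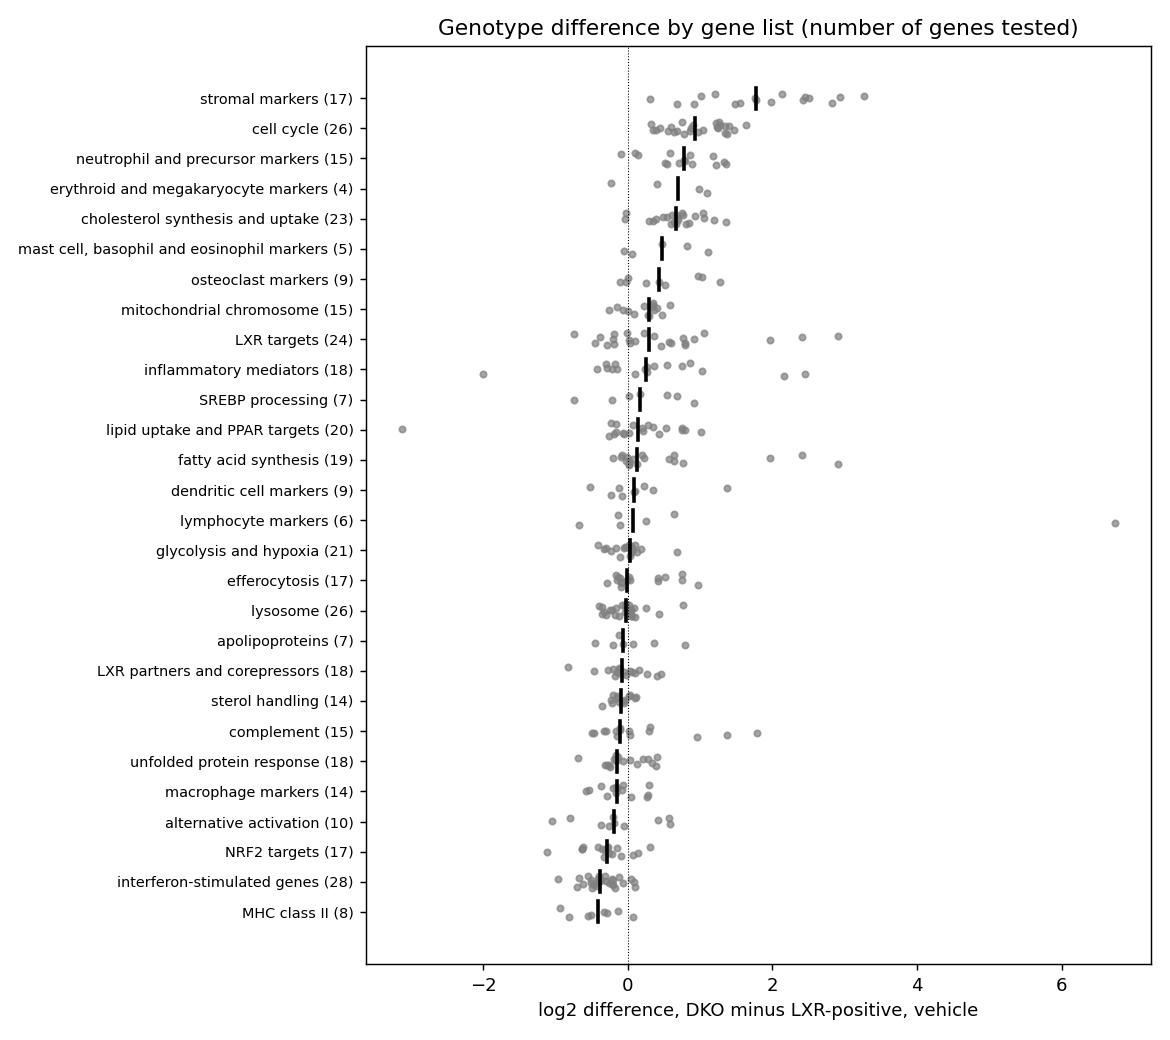
Log2 difference, DKO minus LXR-positive, of each tested member (grey points) of 28 gene lists, with the median of each list as a black bar and 0 as a dotted line. Cholesterol synthesis genes, cell cycle genes and stromal markers lie mostly above 0, and interferon-stimulated and NRF2 target genes mostly below it.

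Immune response genes showed no call in limma. Of 28 interferon-stimulated genes, 3 lay above 0 and 25 below (median -0.38), with 0 calls in limma, the 24-library fit and DESeq2. The groups lay apart in 6 of them, all lower in DKO, against 10.7% of all genes. Ifit2, an RNA-binding effector, had 4583, 3076 and 4016 in LXR-positive and 2467, 1493 and 3569 in DKO libraries. It was lowest in DKO library 2, and DKO library 3 overlapped the LXR-positive range. Of 18 tested inflammatory mediators 11 lay above 0, with Nlrp3, the inflammasome sensor, at 741 to 1064 and 658 to 1053. MHC class II genes differed between DKO mice: H2-Ab1 had 1564, 1446 and 1607 in LXR-positive and 601, 601 and 3455 in DKO libraries, with DKO library 3 far above the others and the remaining 2 below every LXR-positive library. Cd74, the chaperone of class II proteins, had 6555, 5489.8 and 5859 and 2476, 2705 and 16018. Of 8 tested genes of that list 1 lay above 0 and 7 below, with 0 calls, while edgeR and DESeq2 put H2-Ab1 and Cd74 above 0. Without DKO library 3, limma called both lower, H2-Ab1 at -1.35 (adjusted p = 0.0176) and Cd74 at -1.20 (0.0389).

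For the remaining lists, medians were -0.03 for 26 lysosome genes, -0.01 for 17 genes of dead cell uptake, 0.03 for 21 of glycolysis and hypoxia, -0.10 for 15 of complement, -0.15 for 18 of the unfolded protein response, -0.20 for 10 of alternative activation and -0.06 for 7 apolipoprotein genes. The 15 genes of the mitochondrial chromosome had a median of 0.29, 0.71 without LXR-positive library 2. All of these lists had 0 calls in limma, the 24-library fit and DESeq2. Ctsb, the lysosomal protease cathepsin B, had 88115 to 107632 and 82707 to 95099, Gpnmb, a lysosome-linked glycoprotein, 50696 to 55294 and 50452 to 59465, and C1qa, a complement subunit, 5987 to 7138 and 6288 to 7343. Hsp90b1, a chaperone of the endoplasmic reticulum, differed by -0.31 ± 0.10 with groups apart (limma adjusted p = 0.34).

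The same genotype contrast in the other treatments used other libraries. If equal numbers mark the same mouse, it repeats the measurement and adds no mice. Limma called 960 genes under GW3965 at 1 µM (6.3%), 1051 under AcLDL at 50 µg/ml (6.9%) and 478 under KLA at 100 ng/ml (3.27%). Of the 8 genes called higher with vehicle, 7 lay apart in the same direction in each of the 3 treatments. Of the genes tested, 14.3%, 14.9% and 12.8% did so in the order GW3965, AcLDL and KLA. All of the 7 but Mid1 were immunoglobulin genes and pseudogenes that passed the vehicle filter through the DKO libraries alone. With vehicle they could be called in that direction only, and equal numbers may mark the same mice. Their part of this count thus supports nothing. The other gene called higher, Scd2, lay apart in the opposite direction in all 3. Both genes called lower lay apart and lower in all 3, where 16.5%, 16.9% and 15.6% of the genes did so in that order. Plxdc2 had 2011, 1866 and 2065 in LXR-positive and 141, 210.1 and 109 in DKO libraries under GW3965, and 303, 196 and 255 and 33.4, 51.8 and 33.1 under KLA; the levels under KLA were lower in both genotypes. Cat had 4812, 5727 and 5738 and 1862, 1717 and 2315 under AcLDL. Ighg2b had at most 1 LXR-positive library with reads in any treatment and 221, 464 and 225 in DKO libraries under AcLDL. Mid1 had 120.0, 130.3 and 118 and 565, 721 and 541 under KLA.

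Scd2 was on opposite sides with vehicle and with the treatments. Under GW3965 the LXR-positive libraries held 12476, 12882 and 11701 and the DKO libraries 1509, 2762 and 1688 (-2.69, limma adjusted p = 8.0e-04). Under AcLDL the values were 697, 822 and 535 and 201, 436 and 147 (-1.52, 0.0478), and under KLA 8403, 4657 and 10062 and 1793, 3331 and 2988 (-1.49, 0.0494). The DKO libraries with GW3965 and KLA held 1509 to 3331, near their vehicle range of 1344 to 2646, while those with AcLDL held less. Abca1 was higher in DKO with vehicle, lower under GW3965 (38559 ± 3148 in LXR-positive against 16146 ± 1110.2 in DKO) and higher under KLA (9881 ± 922 against 14851 ± 3188). Abcg1 was lower in DKO in all 3 treatments, for example 1584, 2525 and 1645 against 772, 902 and 637 under KLA. Mylip was lower in DKO in all 3 as with vehicle, and by more: -2.42, -1.48 and -1.67 under GW3965, AcLDL and KLA.

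**Figure D5:**
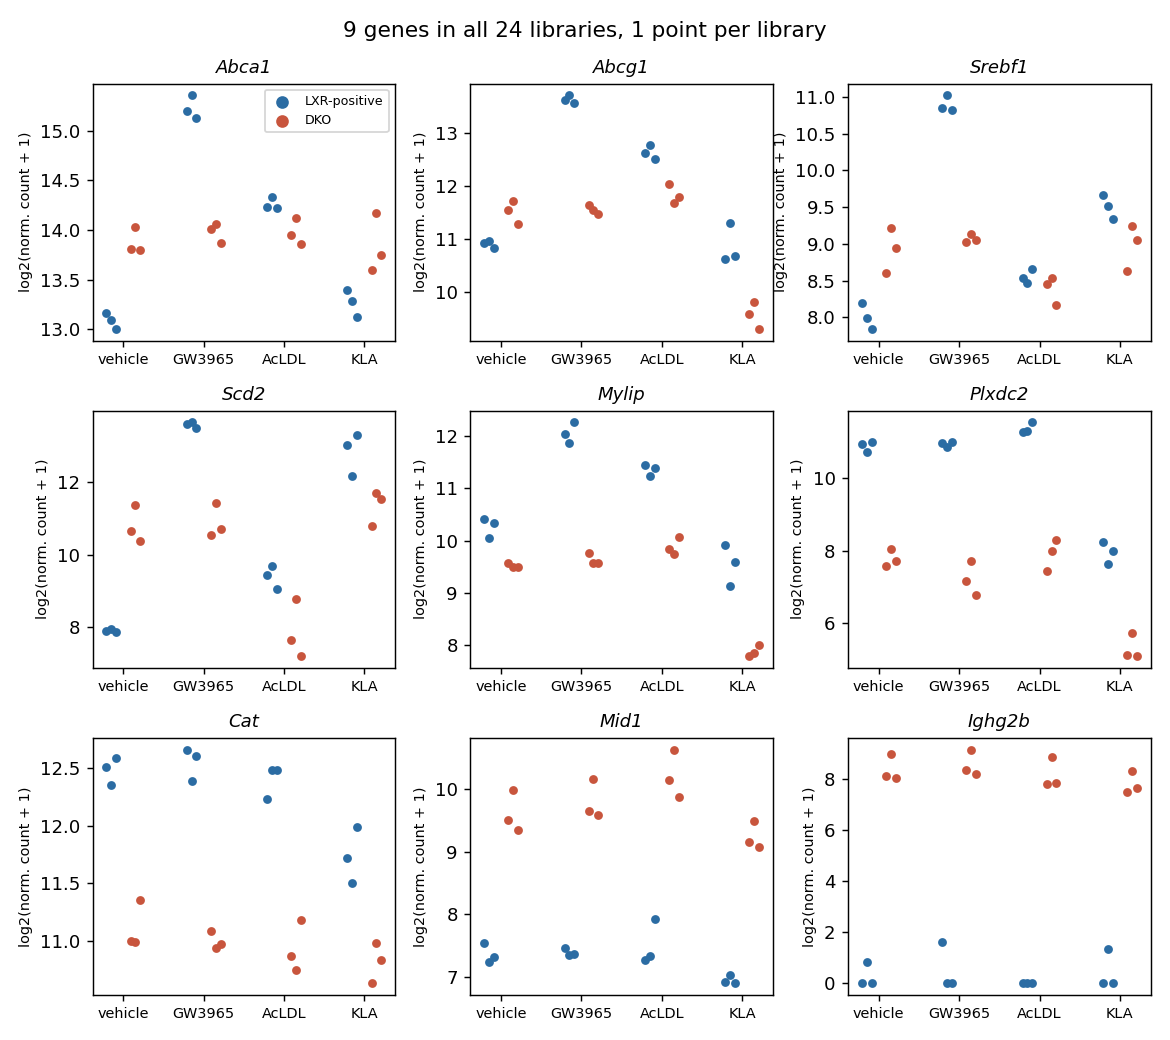
Log2(normalized count + 1) of 9 genes in all 24 libraries by treatment, LXR-positive in blue and DKO in red, 1 point a library, each gene on its own scale. Scd2 and Abca1 are higher in DKO with vehicle and lower with GW3965, while Plxdc2, Cat and Mylip are lower and Mid1 and Ighg2b higher in DKO in all 4 conditions.

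Of the 49 entries that the 24-library fit called higher with vehicle, 41, 42 and 38 lay apart in the same direction under GW3965, AcLDL and KLA, and of the 35 called lower 34 did so in each. That fit used those libraries for its spread, so the counts describe the entries and support nothing. Abca1, Cd38, Scd2 and Srebf1 lay apart in the opposite direction under GW3965, Abca1 and Scd2 under AcLDL, and Fdft1, Scd2 and Srebf1 under KLA.

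Among the genes tested, 3 followed the level of Nr1h2 most closely over the 24 libraries, as a description over libraries that share treatments and, by their numbers, may share mice. Pearson's r of log2 values was 0.883 for Vps26b, a subunit of the retromer that sorts endosomal cargo, 0.883 for the tetraspanin Cd81 and 0.872 for Qdpr, which regenerates tetrahydrobiopterin. Nr1h2 itself was lower in DKO in each treatment, at 468 to 656 against 290.1 to 398 under GW3965, 438 to 553 against 279 to 351 under AcLDL and 449 to 821 against 299.6 to 395 under KLA. With vehicle Vps26b had 1035, 977 and 1023 in LXR-positive and 849.9, 817 and 899 in DKO libraries, Cd81 488, 337 and 608 and 204, 279 and 297, and Qdpr 499.6, 611 and 528 and 479, 423 and 431. For all 3 the DKO libraries lay below the LXR-positive ones, and none of these differences passed limma (adjusted p = 0.40, 0.32 and 0.41).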

How the data were processed

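RNA was taken from cultures of individual mice, 500 ng a library, prepared with a stranded total RNA kit and read as single ends of 50 bases on a HiSeq 2500, per the labels' protocols. The submitters' processing notes name kallisto, DESeq2 and the build GRCm38, without versions. Normalized counts, a signal per gene scaled by library, are what the authors deposited. Within 0.01 read, 100% of values came out as whole reads, and reads were recovered from them. Genes at 10 or more in at least 3 of 6 libraries (14949) were tested with limma 3.58.1 (R 4.3.3) on log2(value + 1), 2 group means, no block, Benjamini-Hochberg. The deposited values were signal and not raw counts, so edgeR 4.0.16 and DESeq2 1.42.0 ran on recovered reads as alternatives, beside pseudocount 8, other filters, quantile normalization, thinned reads, fits over more libraries and omission of each library. The 24-library fit estimated a correlation of 0.144 between libraries of one genotype and number, read as 1 mouse. Exon overlaps and positions are from GENCODE M21, which held 46734 of the 47372 gene IDs, and promoters from RefSeq. On simulated data the fits were tested with 14868 genes.

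Text names the targeted genes, the called genes of at least 50 counts in the higher group that are not clone or model names, called list members, the 4 members of highest mean in lists, called genes within 10 Mb of the targeted loci and the 3 genes most like Nr1h2. Other names were chosen after their values were seen. The members and lists were chosen with earlier results of these data known. Results of some list members are not reported here.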

Additional observations from a re-analysis of the deposited data

Results flagged for a closer look

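Some lipid genes lay apart in one direction with vehicle and in the opposite direction under another treatment, in every library of both groups; the difference between treatments was not tested. With vehicle all of the following were higher in DKO. Under GW3965 the log2 difference, DKO minus LXR-positive, was -4.06 for Scd1, -2.69 for Scd2, -2.07 for Abcg1, -1.83 for Srebf1, -1.71 for Fads2, -1.26 for Abca1 and -0.84 for Insig1. Under AcLDL it was -1.52 for Scd2, -0.80 for Abcg1, -0.40 for Insig1, -0.32 for Hmgcs1, -0.29 for Abca1 and -0.21 for Msmo1. Under KLA it was -2.91 for Fads2, -1.65 for Fdps, -1.49 for Scd2, -1.44 for Sqle, -1.42 for Insig1, -1.33 for Msmo1, -1.30 for Abcg1, -1.25 for Fdft1, -1.16 for Hmgcs1, -0.69 for Srebf2 and -0.53 for Srebf1. Scd2, Abcg1 and Insig1 were so under all 3 treatments. Sqle, squalene epoxidase, had 236, 177 and 296 in LXR-positive and 339.6, 411 and 352 in DKO libraries with vehicle and 967, 449 and 923 and 257, 244 and 316 under KLA.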

How the results depend on the processing

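The main test called 10 genes, 8 higher and 2 lower. Without a filter it called 22 (17 higher, 5 lower), with a mean of 50 or more 6 (4 higher), in DESeq2 189 (110 and 79), with the GW3965 libraries 48 (36 and 12), over all 24 libraries 67 (43 and 24) and with the mouse as a random block 84 (49 and 35). The cause was not tested. Leaving out each library gave 5 to 34 calls, 4 to 29 higher and 1 to 8 lower, the fewest without DKO library 2 and the most without LXR-positive library 2. Replicate numbers did not pair the mice: same-numbered libraries correlated at -0.156, -0.087 and 0.203 across genotypes, and not every library correlated best with its own number. With the replicate block limma called 11 (8 higher, 3 lower). The median of the LXR partners was -0.09 and 0.03 under quantile normalization, which also turned the medians of lysosome (0.04), efferocytosis (0.10), dendritic cell (-0.12) and plasma cell (0.09) lists. No gene that passed the main test changed direction in any alternative. The called immunoglobulin genes and pseudogenes, with few or no reads in the LXR-positive libraries, could hardly have done so. With 3 mice a group, the design limits what can be called. Simulated differences of 1 on the log2 scale were called for 62 of 100 genes with a mean of 50 or more. DKO libraries were deeper, so genes at 0 in LXR-positive libraries have the floor stated.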

Other observations

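Further genes were called by the 24-library fit and not by limma on the 6 vehicle libraries, and are named after their values were seen. Bmpr1a, a receptor of bone morphogenetic proteins, had 33.3, 18.7 and 18.3 in LXR-positive and 127, 177 and 83.9 in DKO libraries (2.40 ± 0.35, limma adjusted p = 0.083, 24-library fit 0.0018, DESeq2 3.7e-07). Cd38, an enzyme that consumes NAD, had 36.9, 42.8 and 51.3 and 93.8, 195 and 89.7 (1.43 ± 0.32, limma adjusted p = 0.26, 24-library fit 0.0040, DESeq2 0.0071). Sgip1, a protein of endocytosis, had 290.3, 328 and 288 and 692, 522 and 619.9 (1.01 ± 0.14, limma adjusted p = 0.066, 24-library fit 0.027, DESeq2 7.9e-07). All 3 DKO libraries were higher for each of these genes.

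On the lower side, Wwc2 of Hippo signalling had 554, 457 and 470.4 in LXR-positive and 249, 294 and 279 in DKO libraries (-0.85 ± 0.13, limma adjusted p = 0.096, 24-library fit 5.7e-04, DESeq2 8.3e-05). The ribosomal protein gene Rps4x had 5969 to 6814 in LXR-positive against 4203 to 4566 in DKO libraries. Rragc, a Rag GTPase of nutrient sensing, had 6811, 5341 and 7279 and 4280.0, 4322 and 3907, and shares 264 exon bases with a gene on the opposite strand.

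A few calls of the 24-library fit lay side by side. On chromosome 19, Fgfbp3 starts at 36917550, Btaf1 at 36926079 and Ide at 37268743, and all 3 were lower in every DKO library. Btaf1, a regulator of TATA-binding protein, had 2974, 2959 and 3117 and 1904, 1866 and 1956 (-0.66 ± 0.08, limma adjusted p = 0.0534). Ide, which degrades insulin, had 660.2, 558 and 806 and 268, 261 and 296 (-1.28 ± 0.15, limma adjusted p = 0.0504). On chromosome 1, C130026I21Rik starts at 84992690, A530032D15Rik at 85083069 and Gm16094 at 85599286, all higher in DKO, with A530032D15Rik at 25.0, 24.1 and 28.1 and 74.5, 52.8 and 88.8. Whether these blocks differ in sequence between the mice was not tested.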
